A study of Mus musculus with 6 samples.

Results

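Transcripts of mouse chromosome 9 were compared between Rpl22-/- and Rpl22+/+ leukemic cells in 3 stretches of the chromosome, divided by the position of each gene's start. Of 848 chromosome 9 genes with a deposited position, 659 had a mean of at least 50 estimated reads over the 6 libraries and were retained, out of 11998 positioned genes that passed this minimum in the genome. Of these, 207 genes started below 50 Mb (the proximal stretch), 139 from 50 to 70 Mb and 313 from 70 Mb onward (the distal stretch). The boundaries were drawn with the genotype difference in view, so the fold changes that follow are a description of these libraries, with no test of the stretches. Distal genes were shifted upward in Rpl22-/- cells, with a median log2 fold change of 0.55 (Rpl22-/- over Rpl22+/+, n = 313 genes), proximal genes were close to the rest of the genome (median 0.11, n = 207), and the genes between them lay in the middle (0.32, n = 139). The 10231 genes of the other 17 autosomes, leaving out chromosome 4, had a median of 0.00. The shift did not include every kind of gene: distal neutrophil granule genes such as Ngp, Camp and Ltf were strongly lower in Rpl22-/- cells.

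Genes that lie on the same chromosome are read from separate promoters and need not share a function. A median over many neighboring genes therefore describes a region of the chromosome and not any one gene or pathway in it. Mouse chromosome 9 holds several groups of genes that matter in blood cells, among them the CD3 chains of the T cell receptor complex, the collagenase Mmp8, the granule proteins Ltf, Camp and Ngp, and a cluster of chemokine receptors. It also holds Kmt2a (Mll), the gene into which the AF9 sequence was knocked in to make the Mll-AF9 leukemia model.

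The libraries were made from poly(A) RNA of CD11b+Gr1+ splenocytes, a surface phenotype of granulocytes and monocytes, of tumor-bearing mice. All 6 carried the Mll-AF9 knock-in, 3 with intact Rpl22 (Rpl22+/+) and 3 with the gene for this ribosomal protein disrupted in the germline (Rpl22-/-). The methods state that young adult mice backcrossed to C57BL/6 were used in all experiments. They give no separate age for the leukemic mice of these libraries, and describe cells purified by flow cytometry. The Rpl22 deletion is present in every cell of the animal and not in the sorted cells alone, and the labels do not say that the 3 replicates of a genotype were different mice. A legend of the study names a single mouse of each genotype for RNA-seq of leukemia explants. The spread between replicates may therefore be technical, and each fold change, adjusted p and call below may compare a single Rpl22-/- leukemia with a single Rpl22+/+ leukemia.

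Between 35828500 and 102866127 estimated reads were available per library. Rpl22, on chromosome 4, had 148, 235 and 152 normalized counts (CPM, scaled to TMM-adjusted library sizes) in the Rpl22+/+ libraries and 58.3, 89.9 and 73.5 in the Rpl22-/- libraries, so the labels and the transcript levels had the same order, with residual Rpl22 reads in the knockout. The 7 markers of the sorted cells were abundant in each library, at a sum of 115404 to 121463 Salmon abundance (TPM, normalized to transcript length) in Rpl22+/+ and 94169 to 112835 in Rpl22-/-. The 5 erythroid markers summed to 146 to 172 TPM in Rpl22+/+ and to 918 to 1676 in Rpl22-/-, the 5 B cell markers to 395 to 502 and 284 to 388, the 4 platelet and megakaryocyte markers to 3.57 to 4.87 and 4.94 to 5.17, and the 5 markers of stroma and endothelium to 23.6 to 26.4 and 33.4 to 39.1, and their part in the chromosome 9 differences was not tested. In bulk RNA, fewer cells of a type and less RNA per cell cannot be told apart. One library stood apart: in Rpl22+/+ replicate 2, 59 of the 659 genes were under 0.5 times their level in every other library, against 0 to 3 genes in the other libraries, and the longest transcripts of these 59 had a median length of 5910 bases against 3418 for the remaining genes. Such genes lay in each stretch (19 below 50 Mb, 13 from 50 to 70 Mb and 27 from 70 Mb). Values without this library are given for the shifts and for some counts of calls, and not for the functional lists.

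The single position that best divided the chromosome by fold change fell between Il18 and Sdhd. Promoters of genes on either side of it are shown because the genes around this point differ in type: Il18 encodes a cytokine made by myeloid cells, whereas Pts (tetrahydrobiopterin synthesis), Sdhd (a subunit of succinate dehydrogenase) and Timm8b (import of proteins into mitochondria) serve general metabolism. Each run holds 250 bases before and 50 bases after the RefSeq start, 5′ to 3′ on the strand of the gene in the GRCm38.p6 build, with CG dinucleotides in capitals. These coordinates are of an earlier build than the gene positions of the deposited table (GRCm39) and are not interchangeable with them.
Pts (chr9:50528607-50528906, minus strand): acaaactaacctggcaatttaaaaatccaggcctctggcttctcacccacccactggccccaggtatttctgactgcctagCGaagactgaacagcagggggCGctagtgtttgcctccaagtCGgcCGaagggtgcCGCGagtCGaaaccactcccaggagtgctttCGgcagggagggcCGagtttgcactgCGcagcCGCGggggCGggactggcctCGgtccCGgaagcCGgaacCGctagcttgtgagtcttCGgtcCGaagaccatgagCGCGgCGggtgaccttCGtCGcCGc
Il18 (chr9:50554450-50554749, plus strand): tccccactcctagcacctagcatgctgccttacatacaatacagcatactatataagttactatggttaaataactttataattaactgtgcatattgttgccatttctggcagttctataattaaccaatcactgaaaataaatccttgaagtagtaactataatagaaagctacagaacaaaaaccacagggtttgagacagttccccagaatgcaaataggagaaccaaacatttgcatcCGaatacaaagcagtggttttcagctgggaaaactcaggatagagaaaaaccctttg
Sdhd (chr9:50603800-50604099, minus strand): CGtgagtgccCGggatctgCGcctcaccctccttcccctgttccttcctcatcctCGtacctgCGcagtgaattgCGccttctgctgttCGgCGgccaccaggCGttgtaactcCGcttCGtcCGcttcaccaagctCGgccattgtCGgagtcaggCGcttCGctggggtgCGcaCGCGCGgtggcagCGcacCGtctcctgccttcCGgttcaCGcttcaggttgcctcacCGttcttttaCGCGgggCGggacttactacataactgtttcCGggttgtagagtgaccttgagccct
Timm8b (chr9:50603651-50603950, plus strand): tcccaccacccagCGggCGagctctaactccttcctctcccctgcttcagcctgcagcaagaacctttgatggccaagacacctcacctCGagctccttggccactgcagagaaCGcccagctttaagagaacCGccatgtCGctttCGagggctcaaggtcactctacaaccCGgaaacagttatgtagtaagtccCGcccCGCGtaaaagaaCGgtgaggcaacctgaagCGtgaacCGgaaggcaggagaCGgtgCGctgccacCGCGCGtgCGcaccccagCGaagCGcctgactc

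The Il18 window held 1 CG and was 36.7% G and C, whereas those of Pts, Sdhd and Timm8b held 25, 29 and 22 CG and were 62.7%, 62.0% and 60.3% G and C. The Sdhd and Timm8b windows face each other and share 151 bases. The letters CCGGAAG, searched on both strands, were present in the Pts, Sdhd and Timm8b windows. They were held by 8.86% of all 32851 RefSeq promoter windows and by 17.9% of those of the retained genes on the other autosomes but 4. This motif lies on the printed strand for Pts and Timm8b and on the opposite strand for Sdhd. The Sdhd and Timm8b hits are the same site in the shared bases, read from opposite strands. Searched in the same way, CCAAT (on the printed strand) and TATAAA (on the opposite strand only, so not among the printed letters) were found in the Il18 window alone among the 4, and 37.4% and 13.6% of all windows held these.

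Il18 had 1.45, 1.67 and 1.84 CPM in the Rpl22+/+ libraries and 0.668, 0.749 and 0.784 in the Rpl22-/- libraries, a log2 fold change of -1.17 ± 0.24 (SE, edgeR quasi-likelihood fit), and it was called lower. Here and below, a gene is called where the Benjamini-Hochberg adjusted p of the edgeR test over all 16656 genes tested was under 0.05. Sdhd, the next gene along, had 87.2, 133.9 and 91.2 CPM in Rpl22+/+ and 121.7, 157.5 and 129.4 in Rpl22-/- (0.39 ± 0.21, not called). The groups overlapped for Sdhd and did not for Il18, whose call was lost without Rpl22+/+ replicate 3 (-1.09) or Rpl22-/- replicate 3 (-1.22). Timm8b (0.56 ± 0.23), Nkapd1 (0.49 ± 0.24), Pts (0.36 ± 0.19) and the ribosomal protein pseudogene Rpl10-ps3 (0.27 ± 0.25) were not called either, although a fit blocked on replicate number called Timm8b (0.58) and Nkapd1 (0.52). Rpl10-ps3 shares sequence with its parent gene, so its reads may be split.

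The size of the shift was first described over whole stretches. Of the 313 distal genes, 248 (79.2%) had a fold change above 0, against 104 of 139 (74.8%) from 50 to 70 Mb, 116 of 207 (56.0%) below 50 Mb and 5129 of 10231 (50.1%) on the other autosomes. Relative to the median of the other autosomes, the distal median was higher by 0.54 (a fold of 1.46), that of the middle stretch by 0.32 (1.25-fold) and that of the proximal stretch by 0.11 (1.08-fold). Both quartiles of the distal genes were higher: the 25th and 75th percentiles were 0.11 and 0.96, against -0.44 and 0.37 on the other autosomes, with interquartile ranges of 0.85 and 0.81. Chromosome 4, which carries Rpl22, had a median of 0.43 over 734 genes.

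Of the distal genes, 121 were called higher and 30 lower, when 13.7% of all genes tested were called higher and 13.8% lower. From 50 to 70 Mb, 39 were called higher and 13 lower, and below 50 Mb 29 higher and 34 lower. With a fold change of more than 1 on the log2 scale required as well, 65 distal genes were higher and 21 lower (8.93% and 8.54% of all genes tested), 13 and 6 of the middle stretch, and 17 and 19 of the proximal stretch. The CPM of the 2 groups did not overlap, with Rpl22-/- higher, for 170 distal, 65 middle and 55 proximal genes (23.9% of all genes tested), and with Rpl22-/- lower for 40, 20 and 48 (22.2% of all). The contrast that gave these counts is the one by which the stretches were drawn, and nothing further is read from them. With the replicate number as a block in the fit, 47 proximal genes and 59 genes of the middle stretch were called higher, and with Rpl22+/+ replicate 2 left out the numbers were 55 and 60, against 29 and 39 with all libraries and no block. Calls of higher rose over the whole genome in these fits, to 17.7% and 20.7% of all genes tested. Fewer genes were called, on chromosome 9 and over all genes, when other libraries were left out. Without Rpl22+/+ replicate 1, replicate 3 or Rpl22-/- replicate 3, 72, 60 and 73 distal and 22, 17 and 22 middle genes were called higher, and 19 and 15 proximal genes without the first 2 of these, when 8.06%, 6.76% and 8.11% of all genes tested were called higher. Over all genes, 8.25% to 9.83% were called lower without Rpl22+/+ replicate 1 or 3 or Rpl22-/- replicate 1 or 3. The 30 distal genes called lower became 19 without Rpl22+/+ replicate 3 or Rpl22-/- replicate 1 and 17 without Rpl22-/- replicate 3, and the 13 of the middle stretch became 5 to 8 without any one of these 3 or Rpl22+/+ replicate 1.

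**Figure D1:**
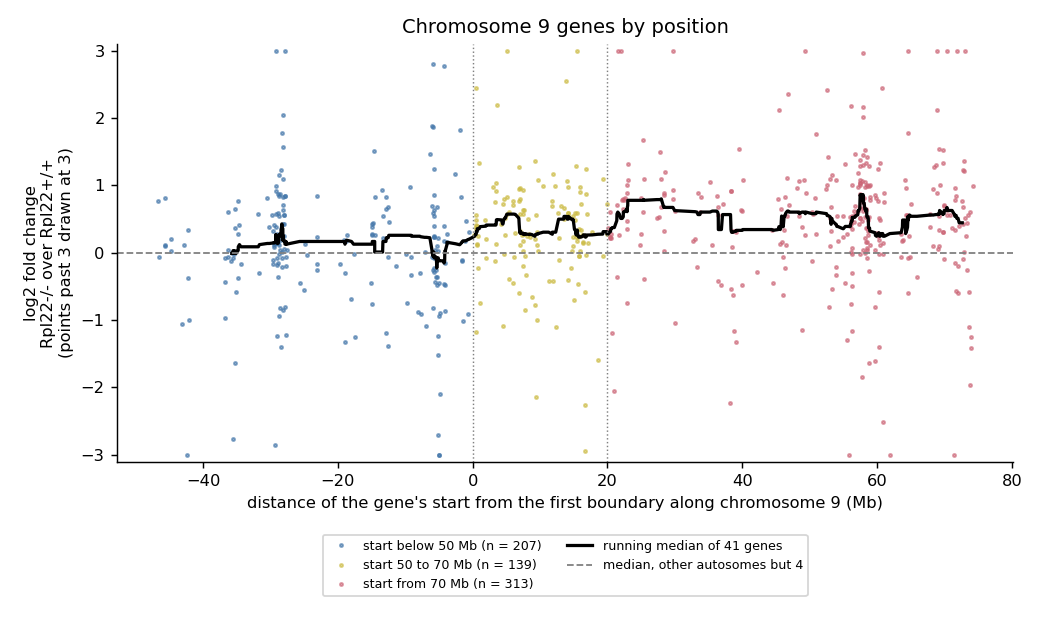
Log2 fold change (Rpl22-/- over Rpl22+/+) of each of the 659 chromosome 9 genes against the distance of its start from the 50 Mb boundary, in Mb; dotted lines mark both boundaries, the black line is a running median of 41 genes and the dashed line the median of the other autosomes but 4. Genes before the first boundary scatter around a median of 0.11, those between the boundaries around 0.32 and those after the second around 0.55, with the running median dipping below 0 shortly before the first boundary.

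The same order was present in single libraries. For each of the 9 pairs made of 1 Rpl22-/- and 1 Rpl22+/+ library, the median log2 ratio of a stretch was taken relative to that of the other autosomes. The distal stretch was higher by 0.45 to 0.60, the middle stretch by 0.31 to 0.55 and the proximal stretch by 0.04 to 0.15. Pairs of the same genotype showed -0.06 to 0.03 for the distal stretch, -0.07 to 0.02 for the middle and -0.03 to just under 0 for the proximal stretch. The distal median exceeded the proximal median by 0.38 to 0.50 in the 9 unlike pairs and by -0.05 to 0.04 in the 6 like pairs.

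Against the mean of the Rpl22+/+ libraries, the distal shift was 0.54, 0.53 and 0.54 in Rpl22-/- replicates 1, 2 and 3. The middle stretch gave 0.40, 0.41 and 0.32, and the proximal stretch 0.15, 0.09 and 0.07. In each of the 3 libraries the stretches had the same order, and the middle stretch varied most. Without Rpl22+/+ replicate 2 the distal shift was 0.48, the middle 0.33 and the proximal 0.08.

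**Figure D2:**
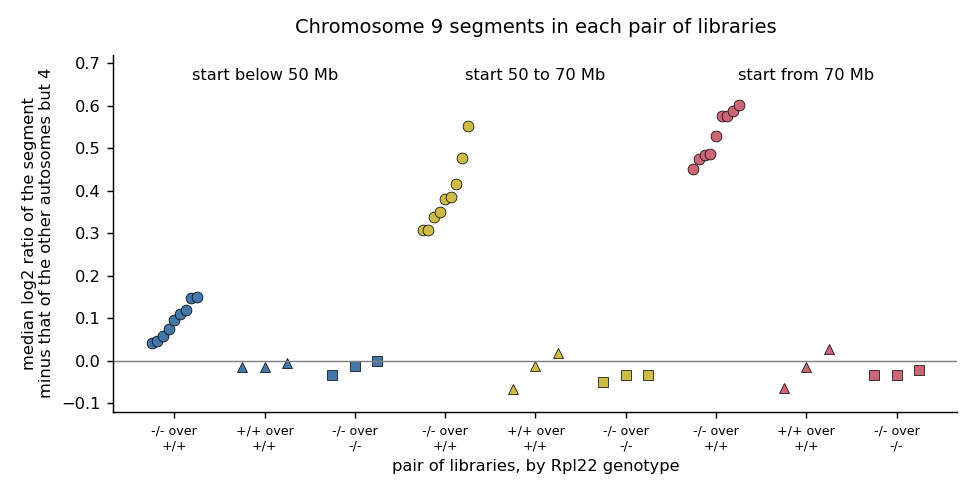
Median log2 ratio of each chromosome 9 stretch minus that of the other autosomes but 4, for every pair of libraries; circles are the 9 Rpl22-/- over Rpl22+/+ pairs, triangles the 3 pairs of Rpl22+/+ libraries and squares the 3 pairs of Rpl22-/- libraries. The unlike pairs lie at 0.45 to 0.60 for the distal stretch and at 0.04 to 0.15 for the proximal stretch, and the like pairs between -0.07 and 0.03.

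To place the rise, all ways to divide the ordered genes at a single point were compared by how much of the summed absolute deviation from the medians they removed. The best point lay between Il18 (start 50.5 Mb) and Sdhd (50.5 Mb), with a median of 0.11 over the 210 genes before it and 0.51 over the 449 after it, and removed 3.20% of the deviation. A point between Aqp9 (71.0 Mb) and Polr2m (71.4 Mb) removed 3.19%, so the position was not fixed to one place. Between these, the best point from 60 to 70 Mb removed 2.93%, and points beyond 80 Mb removed at most 2.15%. Within the genes after the first point, the best further division was again that between Aqp9, a channel for water and glycerol, and Polr2m, with medians of 0.31 before it and 0.55 after it. Between the points at 50.5 and 71.2 Mb the share removed fell as low as 2.11% (57.5 Mb), so they were separate peaks. A point at 49.4 Mb removed 3.12%. These data did not set the point near 50 Mb apart from that near 71 Mb.

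Single libraries did not all place it alike. Rpl22-/- replicates 2 and 3, each against the Rpl22+/+ mean, gave the point between Il18 and Sdhd, and replicate 1 gave one between Zc3h12c and Ddx10 at 52.5 Mb. In the 9 unlike pairs, the point lay at 46.8 to 52.5 Mb in 6 pairs and at 96.1 to 96.3 Mb in 3, with a rise of 0.34 to 0.50 across it. The 10 genes just before the best point had a median of 0.03 with 5 above 0, and the 10 just after it 0.39 with 9 above 0. Over 20 genes on each side the medians were closer, at 0.18 (12 above 0) and 0.39 (16 above 0), and over 30 they were -0.14 (13 above 0) and 0.42 (24 above 0). The same fold changes chose the point, so these values are no support for it.

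**Figure D3:**
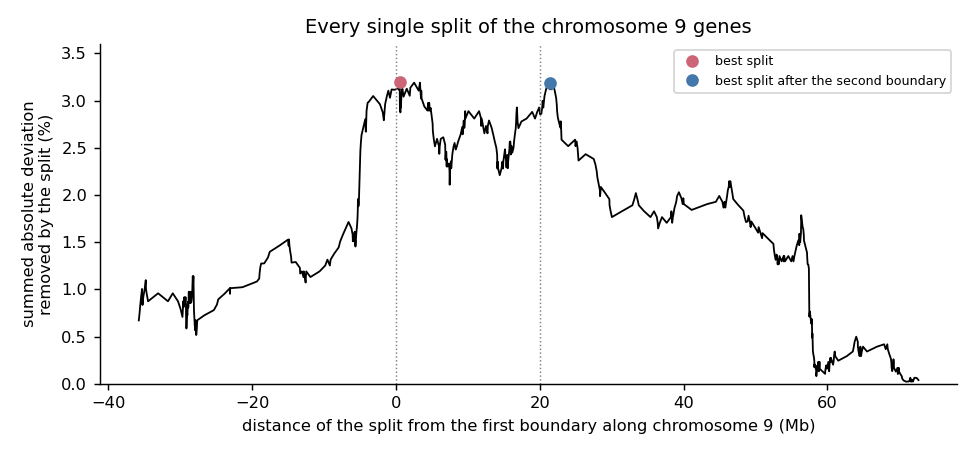
Percentage of the summed absolute deviation of the 659 fold changes that a single division of the chromosome removes, against the position of that division relative to the 50 Mb boundary, in Mb; dotted lines mark both boundaries. The highest point, at 3.20%, lies just after the first boundary and a nearly equal one, at 3.19%, just after the second.

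On the other 17 autosomes the best single point divided medians that differed by 0.11 to 1.10 on the log2 scale. The largest difference was on chromosome 12, where the last 89 genes (from Ighm, in the immunoglobulin heavy chain region) had a median of 1.07 and the division removed 4.18% of the deviation. On the other 16 no division removed more than 1.54%, against 3.20% on chromosome 9. On chromosome 4, left out of these, the best division removed 0.36%, with medians of 0.41 before it and 0.63 after it.

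Windows of 10 Mb, which need no fitted point, were higher from 50 Mb onward than below it, but did not separate the middle from the distal stretch. The 8 windows of chromosome 9 from 50 Mb onward, each with at least 20 genes, had medians of 0.30 to 0.66 relative to the other autosomes, the highest from 70 to 80 Mb (46 genes) and the lowest from 80 to 90 Mb (29 genes). The middle windows had 0.31 (50 to 60 Mb) and 0.33 (60 to 70 Mb), above this lowest distal window and below the other distal ones. The 4 windows below 50 Mb that held at least 20 genes lay between -0.06 and 0.24. Of 170 windows of the other autosomes, 2 were at or above 0.30, on chromosome 6 (60 to 70 Mb, 0.77) and on chromosome 13 (20 to 30 Mb, 0.44), and the 5th and 95th percentiles of these windows were -0.22 and 0.18. Chromosome 4, left out of these, was high too: 8 of its 9 windows with at least 20 genes were at or above 0.30, and they ranged from 0.29 to 0.60.

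**Figure D4:**
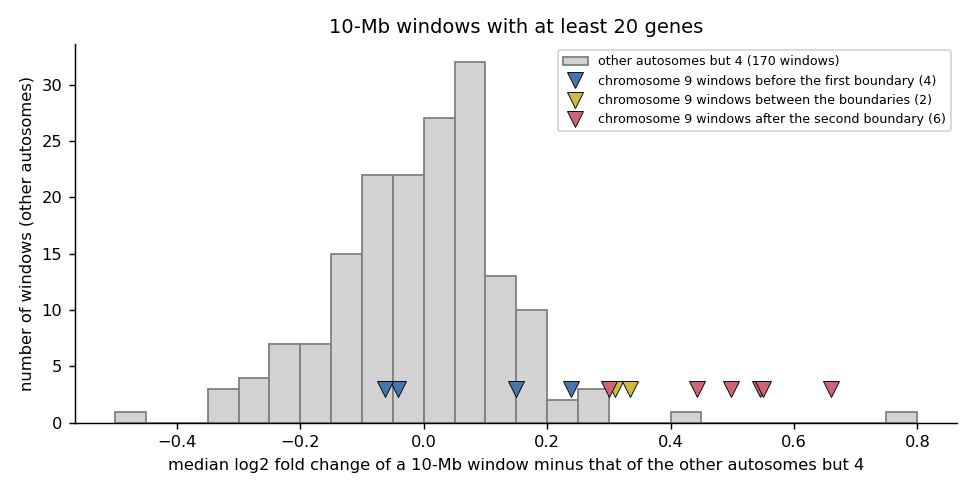
Medians of 10-Mb windows with at least 20 genes, relative to the median of the other autosomes but 4; bars count the 170 windows of the other autosomes and triangles mark the 12 windows of chromosome 9 by stretch, at an arbitrary height. All 8 windows from 50 Mb onward are at 0.30 or above, where 2 of the 170 other windows lie, and the windows of chromosome 4, of which 8 of 9 are also at 0.30 or above, are not drawn.

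The low end of the proximal stretch was a block that included Kmt2a. When 2 points were allowed, they enclosed 25 genes from Cxcr5 (44.4 Mb) to Sik3 (45.9 Mb) with a median of -0.45, between 170 genes with a median of 0.14 and 464 genes with a median of 0.50. Of the 25, which the fold changes themselves marked off, 10 were called lower and 1 higher (13.8% and 13.7% of all genes tested), and nothing is read from these counts. Kmt2a itself (chr9:44714652-44792594, minus strand, GRCm39) lies inside this block and moved the other way. Its CPM was 165, 104 and 152 in the Rpl22+/+ libraries and 271, 178 and 222 in the Rpl22-/- libraries, a log2 fold change of 0.67 ± 0.23 that was not called, with groups that did not overlap. It was called with the replicate number as a block (0.68). Both genotypes carry the knock-in at this locus, and reads of the fusion transcript and of the intact allele were not separated. Mllt3, the mouse AF9 gene on chromosome 4, had a log2 fold change of 0.38 ± 0.24.

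Some genes of the block were near 0 in Rpl22-/- cells. Scn2b, an auxiliary subunit of voltage-gated sodium channels (chr9:45029080-45041368, plus strand), had 41.2, 34.9 and 37.6 CPM in Rpl22+/+ and 0.321, 0.389 and 0.368 in Rpl22-/- (-6.70 ± 0.18). Its neighbor Scn4b, another auxiliary subunit, fell by 6.33 ± 0.32, from 672 to 9 reads summed over the 3 libraries of each group. The CD3 chains Cd3g (-1.24 ± 0.18), Cd3d (-2.70 ± 0.21) and Cd3e (-1.52 ± 0.23) were called lower too, and the 6 T cell markers, which include these 3, summed to 42.4 to 56.4 TPM in Rpl22+/+ and to 13.4 to 15.8 TPM in Rpl22-/-, with none of the 6 at 0. The part of a differing T cell content in these values was not tested. Bace1, the beta-secretase that cleaves amyloid precursor protein, was the one gene of the block called higher, at 19.7, 24.8 and 18.3 CPM in Rpl22+/+ and 162, 138 and 129 in Rpl22-/- (2.77 ± 0.18). Within about 1 Mb, genes thus differed in opposite directions by far more than the regional shift. Without the 25 genes the proximal shift was 0.15 and the best single point was at 71.2 Mb.

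Other proximal genes with large differences lay on both sides of 0. Mcam (CD146, a cell adhesion molecule), at 5.51, 8.05 and 6.23 CPM against 51.8, 51.8 and 34.0, had a log2 fold change of 2.80 ± 0.24. Shfl, an interferon-induced inhibitor of viral frameshifting, had 3.16 ± 0.33 and Thy1, a surface glycoprotein of lymphocytes and progenitors, 1.88 ± 0.21. Mmp8, the collagenase stored in neutrophil granules, was the most abundant of the proximal genes that fell strongly: 873, 680 and 928 CPM in Rpl22+/+ against 76.2, 63.8 and 39.7 in Rpl22-/- (-3.79 ± 0.29). By TPM the most abundant proximal genes were Rps25 and Atp5mg, of the small ribosomal subunit and of ATP synthase (0.23 ± 0.24 and 0.22 ± 0.21, not called), and the chaperone Hspa8, called higher at 0.97 ± 0.25. The call of Hspa8 was lost without Rpl22+/+ replicate 1 or 3 or Rpl22-/- replicate 2 or 3, with fold changes of 0.82 to 0.94.

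Between 50 and 70 Mb, Nrg4 (chr9:55127506-55234128, minus strand) stood out. This ligand of the receptor tyrosine kinase ErbB4 had 15.85, 15.04 and 14.59 CPM in the Rpl22+/+ libraries and 289, 245 and 237 in the Rpl22-/- libraries, a log2 fold change of 4.08 ± 0.15. Rbpms2, an RNA-binding protein (3.72 ± 0.24), Smad6, an inhibitor of BMP signaling (2.55 ± 0.29), and Rab39, a small GTPase of vesicle traffic (2.19 ± 0.19), were higher at low levels, with means of at most 7.502 CPM in either group. Aph1b, a subunit of gamma-secretase, fell from 68.0, 63.1 and 68.1 CPM to 15.19, 13.47 and 13.04 (-2.26 ± 0.13), and its near-identical neighbor Aph1c from 17.6, 16.1 and 18.9 to 11.7, 11.4 and 12.1 (-0.58 ± 0.13), and reads may be split between this pair. The membrane carbonic anhydrase Car12 (-2.95 ± 0.30) and the calcium-binding protein Cib2 (-1.08 ± 0.19) also fell. The 3 most abundant genes by TPM were Rplp1 (0.77 ± 0.29), the pseudogene Rpl10-ps3 given above and Rpl4 (0.59 ± 0.21), and none was called. The groups did not overlap for Rplp1 and Rpl4 and did for Rpl10-ps3. Rplp1 and Rpl4 were called under the replicate block (0.82 and 0.60).

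In the distal stretch, genes nearly silent in Rpl22+/+ cells were among the strongest. Cmtm8, a membrane protein of the chemokine-like factor family, had 1.58, 1.81 and 1.42 CPM in Rpl22+/+ and 30.5, 32.9 and 29.6 in Rpl22-/- (4.27 ± 0.17). Vill, a relative of the actin-binding protein villin, had 4.15 ± 0.18, Pomgnt2, a glycosyltransferase acting on dystroglycan, 4.82 ± 0.24 and Als2cl 2.44 ± 0.17. The genes called lower included Arpp21, a phosphoprotein of neurons and lymphoid progenitors (-4.77 ± 0.37, 12 reads summed over the Rpl22-/- libraries), Col6a4, a collagen VI chain (-4.12 ± 0.32), Vipr1, a receptor for vasoactive intestinal peptide (-3.33 ± 0.22), and the chemokine receptor Ccr1, from 158, 143 and 160 CPM to 49.7, 34.2 and 34.3 (-1.96 ± 0.19).

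Smaller differences were seen in abundant genes. Rab27a, which docks granules at the plasma membrane, had 238, 301 and 255 CPM in Rpl22+/+ and 489, 504 and 478 in Rpl22-/- (0.89 ± 0.14). Uba7, which activates the ubiquitin-like modifier ISG15, had 123, 104 and 112 CPM against 324, 265 and 244 (1.30 ± 0.16). Gpx1, the glutathione peroxidase that removes peroxides (787, 1303 and 876 against 1708, 2080 and 2073 CPM, 0.98 ± 0.23), and Ctnnb1, beta-catenin (231, 289 and 234 against 365, 400 and 352 CPM, 0.57 ± 0.15), were likewise called higher without overlap between the groups. The calls of Gpx1 and Ctnnb1 were lost when either Rpl22+/+ replicate 1 or 3 or Rpl22-/- replicate 3 was left out, with fold changes of 0.83 to 0.94 and 0.50 to 0.61. Ctnnb1 also lost its call without Rpl22-/- replicate 1 (0.59).

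**Figure D5:**
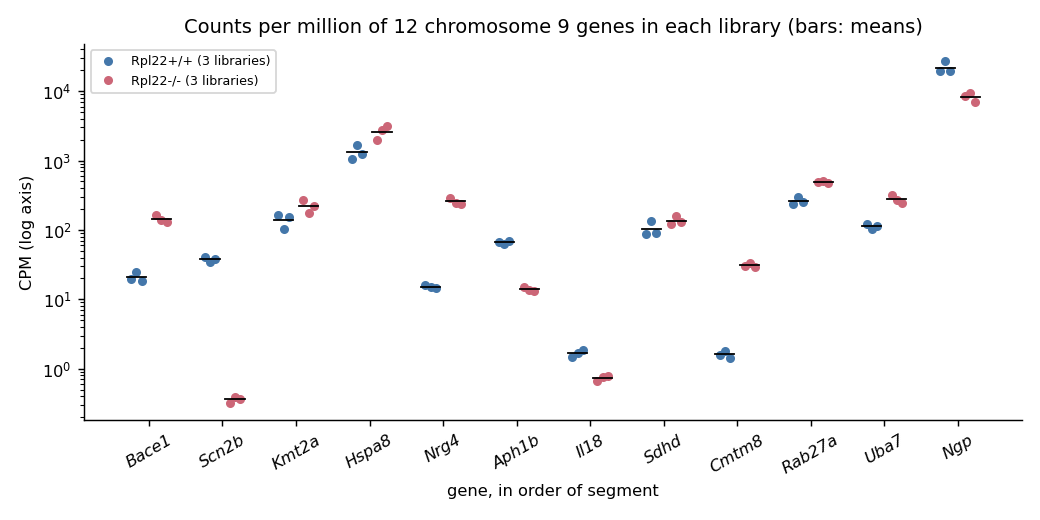
CPM of 12 chromosome 9 genes in each library on a log axis, in the order proximal (Bace1 to Hspa8), middle (Nrg4 to Sdhd) and distal (Cmtm8 to Ngp); points are the 3 libraries of a genotype and bars their mean. The groups overlap for Sdhd and are separate for the other 11 genes, in both directions within each stretch.

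The genes were also grouped by function in 8 lists that hold 136 of the 659 genes. Their counts stand beside 13.7% called higher and 13.8% lower over all genes tested, and beside the stretches that hold the members: 38.7% of distal, 28.1% of middle and 14.0% of proximal genes were called higher, with medians of 0.55, 0.32 and 0.11. In the DNA damage and cell division list (14 genes), the median was 0.66, with 13 above 0, 3 called higher (Tipin and Rad54l2 among them) and 0 lower. Tipin, a replication fork protein, had 39.4, 34.0 and 40.2 CPM against 74.4, 77.6 and 72.5 (0.98 ± 0.13). The checkpoint kinases Atm (0.76 ± 0.81) and Atr (0.64 ± 0.81) had a wide spread: Rpl22+/+ replicate 2 had 2.48 and 2.88 CPM, where replicates 1 and 3 had 29.6 to 36.1. All 15 genes of the ubiquitin and proteasome list lay above 0 (median 0.51), with 5 distal members called higher and 0 lower. The list of ribosomal proteins and translation factors (13 genes) had a median of 0.55 with 1 called higher, Rps27l (1.24 ± 0.27). Many of these genes have near-identical pseudogenes, so their reads may be split.

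Of the 22 metabolic enzymes and carriers, 9 were called higher and 2 lower, with a median of 0.53 and 20 above 0. Its 12 distal members had a median of 0.55, that of all distal genes, with 7 called higher. Alas1, the housekeeping form of the first enzyme of heme synthesis, rose from 194, 270 and 190 CPM to 1031, 988 and 932 (2.18 ± 0.19), and the cysteine ligase Gclc (0.53 ± 0.13), of glutathione synthesis, was called higher too. The ectoenzyme Nt5e (CD73), a distal gene (-2.23 ± 0.24), was among those called lower. All 8 members of this list from 50 to 70 Mb were above 0, at 0.12 to 0.72. The 16 vesicle traffic genes had a median of 0.29, at -0.13 for the 4 proximal and 0.53 for the 10 distal members, with 3 called higher and 0 lower.

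The signaling list (19 genes) had a median of 0.10, with 7 called higher and 1 lower, and ranged up to 4.09 ± 0.36 for the Ras relative Mras, at 0.56 to 1.27 CPM in Rpl22+/+ and 12.5 to 15.9 CPM in Rpl22-/-. The erythropoietin receptor Epor (2.05 ± 0.51) was higher as well, at 0.171 to 0.321 and 0.535 to 1.68 CPM, and moved with the erythroid markers given above. That relation was not tested. The list of chromatin and transcription regulators (17 genes) had a median of 0.19, with 1 called higher (Ctnnb1) and 2 lower, the transcription factors Ets1 (-1.25 ± 0.13) and Zbtb16 (-1.02 ± 0.20), both proximal. With the replicate number as a block, genes called higher numbered 6 in the DNA damage and cell division list, 8 in that of ribosomal proteins and translation factors, 8 in that of the ubiquitin system, 14 in that of metabolic enzymes and 3 in that of chromatin regulators. In the same fit 17.7% of all genes tested and 149 of the 313 distal genes were called higher, against 13.7% and 121 without the block. Without it these lists, in that order, held 3, 1, 5, 9 and 1 genes called higher. Their counts thus rose by a larger factor than those of the genome, and the cause was not tested.

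The list of neutrophil granule and myeloid immune genes was the one of the 8 with a median below 0. Of its 20 genes, 12 were called lower and 0 higher, with a median of -0.95 over the list and -1.26 over its 11 distal members. The granule proteins Ngp (19282, 27127 and 19221 CPM against 8574, 9308 and 7006, -1.40 ± 0.23), Camp, the precursor of the antimicrobial cathelicidin (4803, 6511 and 4362 against 1846, 2031 and 1256, -1.61 ± 0.26), and lactoferrin, Ltf (-2.52 ± 0.29), start between 109.7 and 110.8 Mb. The chemokine receptor Ccr2 (-1.42 ± 0.31), near Ccr1, was lower too, whereas Ccr3 (0.61 ± 0.30) and Cx3cr1 (-0.09 ± 0.24) were not called. Leaving the 20 genes out, a choice made after their values were seen, gave a distal shift of 0.56 and a middle shift of 0.33.

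The share of reads that the distal stretch took was also compared. Of all gene reads, it held 6.10%, 6.73% and 5.99% in Rpl22+/+ replicates 1 to 3 and 5.23%, 5.39% and 4.90% in those of Rpl22-/-, lower in spite of the higher median. Ngp alone made up 32.1% to 34.4% of the distal reads in Rpl22+/+ and 15.02% to 17.7% in Rpl22-/-, where the elongation factor gene Eef1a1 took more distal reads than Ngp in replicate 3 (16.1%). Without Ngp, Ltf and Camp, again chosen after their values were seen, the distal share was 2.60%, 2.72% and 2.64% in Rpl22+/+ and 3.88%, 3.99% and 3.90% in Rpl22-/-. The middle stretch held 1.31%, 1.34% and 1.31% against 1.73%, 1.81% and 1.66%, and the proximal stretch 1.69% to 1.70% against 1.84% to 1.87%. The groups did not overlap in any of these shares.

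The stretches were also compared on expression level, on which the minimum of 50 reads bears, and on properties that the rule did not use. TPM here was the mean over the 6 libraries, so it includes both genotypes. The median TPM was 20.8, 20.4 and 18.2 in the proximal, middle and distal genes and 16.5 on the other autosomes, and the median G and C content of the longest transcript was 50.03%, 48.7%, 50.05% and 49.8%. Within 3 classes of genes by TPM, each against genes of the same class on the other autosomes, the distal shift was 0.47 to 0.56. It was 0.51 to 0.63 within 3 classes by G and C content and 0.51 to 0.61 within 3 classes by transcript length. The other stretches varied more by level. In the class of lowest TPM, the middle shift was 0.10 (38 genes) and the proximal shift lay below 0 (-0.08, 64 genes), against 0.35 and 0.40 for the middle and 0.15 in both cases for the proximal stretch in the classes of higher TPM. By transcript length the middle shift was 0.33 to 0.49 and the proximal shift 0.04 to 0.13, lowest among the longest transcripts for both, and by G and C content 0.26 to 0.35 and 0.10 to 0.11. Promoters had a median of 19 CG in the 159 matched proximal genes, 22 in 122 middle and 20 in 279 distal genes, as against 20 in the 7817 matched genes of the other autosomes. CCGGAAG was found in 19.7%, 21.01% and 18.1% of the promoter windows of the 3 stretches and in 17.9% of those of the other autosomes, and CCAAT in 38.9%, 39.1%, 38.7% and 37.4%.

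At the limits of the rule, Ncam1 (49.4 Mb), the last gene below 50 Mb, had a log2 fold change of 0.31 and Rpl10-ps3 (50.3 Mb), the first beyond it, 0.27. Gtf2a2 (69.9 Mb) had 0.72 and Myo1e (70.1 Mb) 0.37 on the 2 sides of 70 Mb. Cxcr6, with 50.1 mean reads, was the least abundant gene retained (-1.11), Igsf9b, with 48.8, the most abundant left out (0.83), and the 98 tested chromosome 9 genes under the minimum had a median of 0.27.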

How the data were processed

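RNA-seq of CD11b+Gr1+ splenocytes of Mll-AF9 mice was analyzed in 3 Rpl22+/+ and 3 Rpl22-/- libraries. Per the methods and the submitters' processing notes, poly(A) RNA was made into stranded libraries, paired reads were trimmed with Trimmomatic and transcripts were quantified with Salmon against a GRCm39 reference, with versions and strand setting not given in the sources used here. The authors deposited 1 file per library with estimated counts and TPM for each transcript. The deposited estimated counts are not whole numbers, and TPM is already relative to transcript length and to each library's total. A further deposited table holds the authors' own DESeq2 comparison, from which gene positions (start and end) were taken and no fold change or p-value. Its measurement columns, fold changes, test statistics and p-values, were not used.

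Transcripts were joined to genes by Ensembl identifier through the GENCODE M21 transcripts, without version numbers: 136036 of 276623 listed transcripts matched, with 98.0% to 98.1% of the reads in each library. The estimated counts were summed per gene and rounded to whole numbers. Library totals were 35828500 to 102866127 reads, and their number limits the precision of low genes. All 659 genes described passed edgeR's filter on low counts. Fold changes came from edgeR 4.0.16 (R 4.3.3; quasi-likelihood fit, TMM factors, genotype as the one term), with Benjamini-Hochberg adjustment over 16656 genes. CPM use the TMM library sizes. DESeq2 1.42.0, limma 3.58.1 (voom, and log2 of TPM with pseudocounts of 1 and 0.1), other size factors, filters, boundaries, a correction for G and C content, a replicate block and leaving out each library were alternatives. The fit and the search for a dividing point, with at least 20 genes on each side, were run on simulated data with a single clean step. That setting is simpler than these data, so it does not show how well the point is placed here.

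The labels give both genotypes replicate numbers 1 to 3. After removal of the group means, same-numbered libraries correlated at 0.57, 0.71 and 0.13 over the 13202 genes with a mean of at least 50 reads and at 0.48, 0.63 and 0.10 over all genes tested, and unlike numbers at -0.66 to 0.43. Nothing in the labels says that a number marks a shared day or animal. Over the genes with at least 50 reads all 3 values passed 0.1, so blocked fits are given beside the main one. This choice was made after the counts of calls under the block had been seen. The third pair was not set apart. Rpl22+/+ replicate 3 correlated at 0.43 with Rpl22-/- replicate 1, against 0.13 with Rpl22-/- replicate 3. The main fold changes, errors and calls come from the fit without the block.

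The stretches, the functional lists and the rule for named genes were chosen with earlier results of these data known. Named genes were Kmt2a, in each stretch the 4 genes in each direction with the smallest p among those called with an absolute log2 fold change over 1 and without overlap, the 3 genes on each side of the dividing point, the 3 with the highest TPM in each stretch, and the most abundant member of each list in each stretch. Other listed genes, Cd3g, Cd3e and Aph1c were added after their values were seen. Promoter windows came from RefSeq (GRCm38.p6). Chromosome 4 was left out of the comparison because it carries Rpl22. A few listed genes are counted but not reported here one by one.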

Additional observations from a re-analysis of the deposited data

How the results depend on the processing

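No shift of a stretch changed sign under any alternative run, and the distal median exceeded the proximal one in all of them. The proximal shift (0.11) ranged from 0.07 to 0.15, the middle shift (0.32) from 0.27 to 0.41 and the distal shift (0.54) from 0.38 to 0.58. A value is counted as moved where it changed by more than the spread between replicates, taken over both genotypes together, a definition chosen in place of the spread over Rpl22-/- alone after the values were seen. The proximal shift moved to 0.13 with the replicate block, 0.074 with the block and a correction for G and C content, 0.14 with boundaries 5 Mb higher and 0.15 without the 25 genes around Kmt2a, an alternative chosen after seeing the data. The middle shift moved to 0.41 with the block and that correction. The distal shift moved to 0.48 by limma on log2(TPM + 1) and to 0.38 without genes past a log2 fold change of 1, which draws a shifted group toward 0 by construction and bears on no statement here. The difference between distal and proximal genes (0.44) moved to 0.47 with the correction alone, 0.40 by limma on log2(TPM + 1), 0.41 with the block, 0.49 with both, 0.27 without large changes, 0.41 with boundaries 5 Mb higher and 0.40 without the 25 genes. Leaving out 1 library at a time gave 0.072 to 0.13, 0.31 to 0.41, 0.48 to 0.58 and 0.40 to 0.45 for these 4 values.

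The dividing point (50.5 Mb) lay at 71.2 Mb with DESeq2, DESeq2 size factors, upper-quartile factors, scaling to library totals alone, no minimum on counts, without the 25 genes and without the listed myeloid genes (the last 2 chosen after seeing the data), at 71.3 Mb with genes of at least 10 reads, at 52.5 Mb with limma-voom, both TPM fits, the replicate block and genes of at least 200 reads, at 48.9 Mb without large changes and at 50.5 to 52.5 Mb with 1 library left out.

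Genes called higher below 50 Mb (29) numbered 50 with the G and C correction, 48 by both TPM fits, 51 with scaling to library totals alone, 47 with the block and 64 with block and correction, when 19.4%, 19.3% to 19.7%, 21.3%, 17.7% and 23.8% of all genes tested were called higher in these fits against 13.7%. In the middle stretch (39) they numbered 60 with scaling to library totals alone, 59 with the block and 67 with block and correction, and in the distal stretch (121) 184 with block and correction. Leaving out 1 library gave 15 to 55, 17 to 60 and 60 to 159 called higher and 23 to 40, 5 to 15 and 17 to 34 called lower in the 3 stretches, with 6.76% to 20.7% called higher and 8.25% to 19.3% lower over all genes. The cause was not tested. The replicate block changed no other count of calls in a stretch by over 1.5 times. Of 31 named genes called, 27 were called in every alternative and none changed sign in 558 values, of which 13 lost the call.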
